A study of Homo sapiens with 6 samples.

Results

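The plasminogen activation system is described here by 6 genes of a breast cancer xenograft, taken by symbol from a gene expression table of 60606 genes. They are the activators PLAT and PLAU, the inhibitors SERPINE2 and SERPINB2, and the receptors PLAUR and ANXA2, each found once. RNA came from 6 tumors grown under the skin of NOD/SCID/IL2Rγ-null (NSG) mice, which lack T, B and natural killer cells but keep other host cells such as macrophages, vessels and fibroblasts. All tumors were made by injecting wild-type MDA-MB-231 cells, an established human line of triple-negative breast cancer, with Matrigel, a basement-membrane extract. The 3 control tumors were not irradiated. The other 3 received 1 local dose of 10 Gy of X-rays at about 800 mm3 and were taken 3 days later. The labels give neither the volume nor the collection time of the controls, nor the age of the mice, and do not state that each tumor came from a separate animal, so p-values measure only the spread between these samples.

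Plasmin is a serine protease that dissolves fibrin and cuts matrix proteins. It is made from plasminogen, a zymogen secreted by the liver, by tissue-type activator (PLAT, also tPA) or by urokinase (PLAU, also uPA). Urokinase acts mainly at the cell surface on its receptor, and annexin A2 forms a docking site for plasminogen and tPA. Serpins stop the activators by binding them irreversibly, and breast cancer cells of mesenchymal character are known for high urokinase and urokinase receptor.

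Levels are TPM, a transcript's share of the library scaled for gene length, so that genes can be compared with each other. Fold changes are differences of mean log2(TPM + 1), irradiated minus control, which understate the change of low genes. They were tested with limma, and p-values were adjusted over all 14140 genes whose mean reached 1 TPM. The number of reads behind a TPM is unknown. Control tumor 2 stood apart in its ribosomal protein genes, with a share of TPM of 26.9%, where the remaining 5 tumors had 19.8% to 22.3%. The tumors carried the mesenchymal markers of their label, with vimentin (VIM) at 3797 to 5283 TPM in controls and 3148 to 3685 TPM after irradiation, CD44 at 221 to 267 and 158 to 200 TPM, and AXL at 157 to 205 and 108 to 138 TPM. These 3 of the 8 listed markers of the line were lower in every irradiated tumor than in any control, as were 15.0% of all tested genes. Their log2 fold changes were -0.46, -0.44 and -0.53. Of the other markers, EGFR and ANXA1 were also below 0 (-0.26 and -0.27) and CAV1 was at -0.02. The epithelial keratins KRT8 and KRT18 were above 0 (0.21 and 0.08), at 328 to 569 and 428 to 721 TPM over all tumors. None of the 8 passed the test, although AXL did with array weights (limma adjusted p = 0.0447). Of the 7 luminal and HER2 markers, ESR1, PGR and CDH1 reached at most 0.32, 0.22 and 0.21 TPM, while EPCAM, GATA3 and FOXA1 were at 1.59 to 5.1 TPM and ERBB2 at 25.4 to 40.7 TPM.

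Of the 6 genes, PLAT was called higher in irradiated tumors at 1.95 times its mean control level, while PLAU, PLAUR, SERPINE2 and ANXA2 did not pass the test. SERPINB2 was near 0 everywhere, stayed under the filter and was not tested. PLAT rose from 32.2 ± 0.875 to 62.65 ± 3.88 TPM (SD, n = 3), against 1456 ± 68.7 and 1172 ± 305 TPM for PLAU. Thus 1 of the 5 tested members rose and 0 fell, where 1.37% of all tested genes rose and 1.61% fell. Before adjustment 2 members, PLAT and SERPINE2, had p under 0.05, and both were higher, where 20.5% of all tested genes had p under 0.05. A set of 5 is too small to read against these shares.

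**Figure D1:**
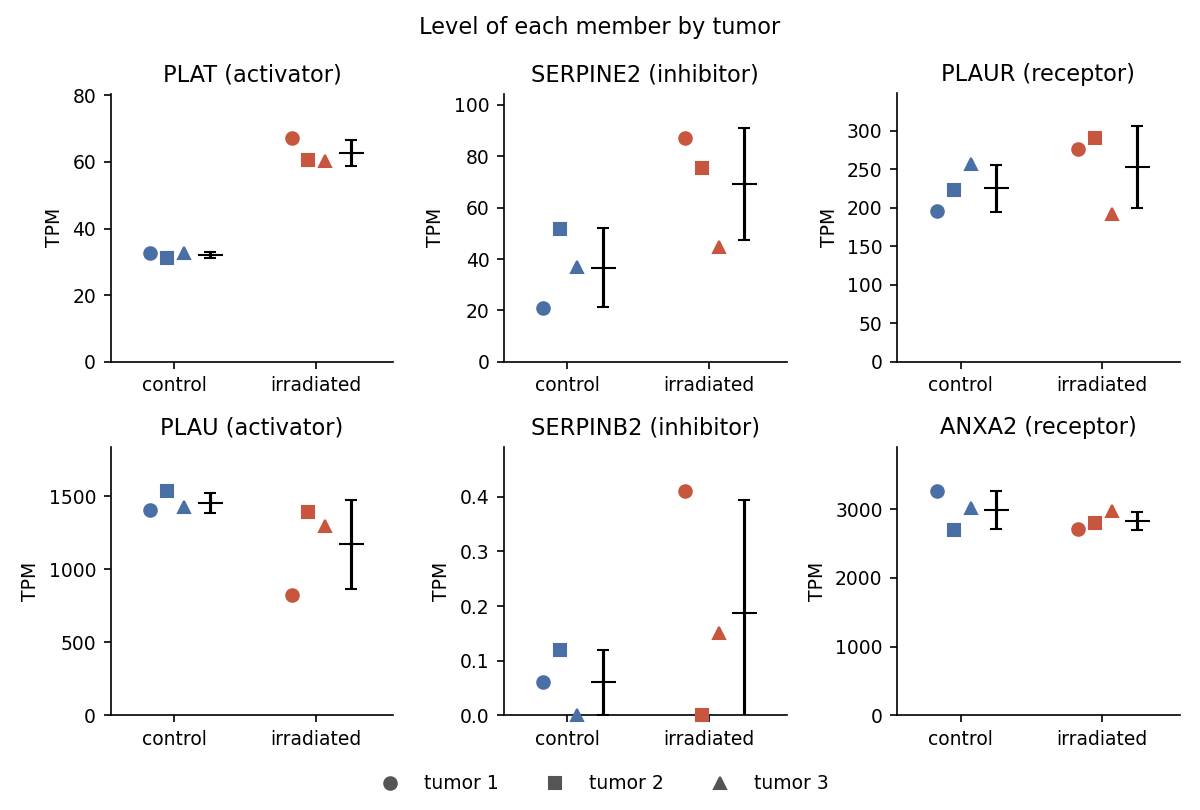
TPM of each of the 6 genes in each tumor (y axis, linear from 0; tumor numbers by symbol), for control and irradiated tumors, with mean and SD beside the points. PLAT is at 31.2 to 32.7 TPM in controls and 60.2 to 67.1 TPM after irradiation, and irradiated tumor 1 is the lowest in PLAU and the highest in PLAT and SERPINE2.

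In the order of their levels, ANXA2 was highest in every tumor, followed by PLAU and PLAUR, then PLAT and SERPINE2, and SERPINB2 last. By mean over the 6 tumors ANXA2 stood at rank 59 and PLAU at rank 122 of all 60606 genes, PLAUR at rank 530, SERPINE2 at 2441 and PLAT at 2707. PLAT and SERPINE2 were neighbours whose order changed between tumors: the ratio of PLAT to SERPINE2 was 1.55, 0.603 and 0.885 in control tumors 1, 2 and 3 and 0.772, 0.804 and 1.34 in irradiated tumors 1, 2 and 3. Together the 6 genes took 0.401% to 0.492% of all TPM.

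Of the activators, PLAT encodes the protease that works best on plasminogen bound to fibrin. The gene (ENSG00000104368) lies on chromosome 8 from 42175233 to 42207724 on the minus strand of GRCh38 and overlaps no other annotated gene. Its level was 32.7, 31.2 and 32.7 TPM in control tumors 1, 2 and 3 and 67.1, 60.6 and 60.2 TPM in the irradiated ones. Every irradiated tumor was above every control, and the spread within each group was small, with a coefficient of variation of 2.72% in controls and 6.19% in irradiated tumors. Its log2 fold change of 0.94 had a 95% interval of 0.64 to 1.23 and a limma adjusted p = 0.0112, the 95th smallest p of the 14140 genes. The call was lost without irradiated tumor 1, the highest of the 3, at a log2 fold change of 0.89 and an adjusted p of 0.0649, and was kept without any other one tumor.

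Endothelial cells are a known source of tPA, and their markers were measured beside it. The 10 endothelial markers had sums of 45.1, 32.5 and 41.7 TPM for control tumors 1, 2 and 3, against 50.8, 46.0 and 66.6 TPM for irradiated tumors 1, 2 and 3. Most of that was ESAM, an adhesion molecule, at 28.1 to 35.6 TPM in controls and 36.4 to 45.9 TPM after irradiation (log2 fold change 0.38, limma adjusted p = 0.224). CDH5, the endothelial cadherin, was at 4.66, 1.35 and 2.24 TPM in control tumors 1, 2 and 3 and at 1.2, 3.59 and 6.92 TPM in irradiated tumors 1, 2 and 3. The receptor TIE1 was at 1.68 to 2.44 TPM in controls and at 1.49, 2.09 and 12.98 TPM in irradiated tumors 1, 2 and 3. Both were highest in irradiated tumor 3 and lowest in irradiated tumor 1, whereas ESAM and PLAT were highest in irradiated tumor 1. Without irradiated tumor 3 the log2 fold changes of CDH5 and TIE1 were -0.14 and -0.078. The 7 remaining markers had a mean under 1 TPM, with VWF at most 0.18 TPM. PECAM1 was at 0.2 to 0.45 TPM in controls and 0.56 to 1.81 TPM after irradiation, and ERG at 0.33 to 0.98 and 0.16 to 0.26 TPM. Fewer cells of a type and less RNA per cell cannot be told apart in bulk tumors. The part in the PLAT result of endothelial RNA, or of the lower mesenchymal markers VIM, CD44 and AXL, was not tested.

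PLAU encodes urokinase, the main activator at the surface of tumor cells. It lies on chromosome 10 from 73909177 to 73917497 on the plus strand and overlaps C10orf55 on the other strand, which was at 1.24 to 4.06 TPM. PLAU was at 1405, 1534 and 1428 TPM in control tumors 1, 2 and 3 and at 823, 1392 and 1300 TPM in irradiated tumors 1, 2 and 3. The groups did not overlap, but irradiated tumor 2 lay just under the lowest control, and most of the difference came from irradiated tumor 1. Among all tested genes 26.6% had groups that did not overlap, in either direction. PLAU did not pass, at a log2 fold change of -0.35 with a 95% interval of -0.80 to 0.10 (limma adjusted p = 0.357), and the fold change was -0.11 without irradiated tumor 1.

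The make-up of the activator transcripts differed between the groups. As PLAT was higher and PLAU lower in every irradiated tumor than in any control, the groups could not overlap in it. PLAT made up 2.28%, 1.99% and 2.24% of the summed TPM of PLAT and PLAU in control tumors 1, 2 and 3, and 7.54%, 4.17% and 4.43% in irradiated tumors 1, 2 and 3. The ratio of PLAU to PLAT was 43.0, 49.2 and 43.7 in the controls and 12.3, 23.0 and 21.6 in the irradiated tumors. PLAU thus remained the more abundant activator by more than 10 times in every tumor, and the groups did not overlap. The mean log2 ratio was 5.50 ± 0.107 in controls and 4.19 ± 0.499 in irradiated tumors (SD, n = 3).

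Of the inhibitors, SERPINE2 encodes protease nexin 1, a serpin that binds thrombin, urokinase and tPA. It lies on chromosome 2 from 223975112 to 224039319 on the minus strand, with no overlapping gene. Its level was 21.1, 51.7 and 36.9 TPM in control tumors 1, 2 and 3 and 87.0, 75.4 and 44.8 TPM in irradiated tumors 1, 2 and 3. Irradiated tumors 1 and 2 were above all controls, but irradiated tumor 3 was below control tumor 2, so the groups overlapped. The log2 fold change was close in size to that of PLAT, at 0.93, but its 95% interval was wide, from 0.14 to 1.73, and it did not pass (limma adjusted p = 0.178). It was 0.59 without control tumor 1 and did not pass in any alternative tried.

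Fibroblasts also make SERPINE2, and their markers were measured beside it. The 11 fibroblast markers summed to 505 to 1056 TPM in controls and 150 to 246 TPM in irradiated tumors. Of 7 tested, 3 were called lower, where 1.61% of all tested genes were. They were the collagen genes COL1A1, COL1A2 and COL3A1, which carry most of the sum. Fold changes were below 0 for 6 of the 7, and PDGFRB went the other way. It was at 2.12 to 4.95 TPM in controls and 4.21 to 12.8 TPM after irradiation (log2 fold change 0.95, limma adjusted p = 0.211). DCN was at 4.82, 0.04 and 0 TPM in control tumors 1, 2 and 3 and at 0.46 to 1.11 TPM after irradiation. The 4 untested markers, LUM, PDGFRA, DPT and THY1, reached at most 0.09, 0.22, 0.66 and 0.39 TPM. LUM was listed at 0 in every control. The call of COL1A1 was lost without control tumor 1 or irradiated tumor 1 or 3 (largest limma adjusted p = 0.0722). That of COL3A1 was lost without irradiated tumor 1 or 3 (0.0605), and that of COL1A2 without irradiated tumor 3 (0.0508). With 1 tumor left out the log2 fold changes ranged from -2.19 to -1.61 for COL1A1, -2.52 to -1.92 for COL3A1 and -2.36 to -1.77 for COL1A2. Calls over all genes fell as well, from 421 to between 127 and 192, except without control tumor 2 (791). For skeletal muscle markers the sums were 202 to 545 TPM in controls, against 2.45, 141 and 1.84 TPM for irradiated tumors 1, 2 and 3. Of 13 muscle markers 11 were tested, and MYH1, MYH4 and CASQ1 were called lower (limma adjusted p = 0.0437, 0.0437 and 0.0337). How these 3 calls depend on the processing is not given. MYH1 and CASQ1, with MYH2 and PYGM among the tested markers, passed the filter only through the controls. Their irradiated means were 0.857, 0.257, 0.19 and 0.837 TPM. All 11 were lower in every irradiated tumor than in any control, as were 15.0% of all tested genes. The part of fibroblasts or muscle in the SERPINE2 values was not tested.

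SERPINB2 encodes plasminogen activator inhibitor 2, a clade B serpin that monocytes and keratinocytes make in quantity. It lies on chromosome 18 from 63871692 to 63903890 on the plus strand and overlaps SERPINB10 on the same strand, so reads could be split between them. SERPINB2 was at 0.06 and 0.12 TPM in control tumors 1 and 2 and listed at 0 in control tumor 3. It was at 0.41 and 0.15 TPM in irradiated tumors 1 and 3 and listed at 0 in irradiated tumor 2. No value reached 1 TPM, and no test result is given at this level. SERPINB10 was as low, from 0 to 0.93 TPM.

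Set against each other, activator transcripts outnumbered those of these 2 inhibitors in every tumor, by less in irradiated tumors on average. The summed TPM of PLAT and PLAU over that of SERPINE2 and SERPINB2 was 68.0, 30.2 and 39.6 in control tumors 1, 2 and 3, and 10.2, 19.3 and 30.2 in irradiated tumors 1, 2 and 3. Control tumor 2 and irradiated tumor 3 were nearly the same, so the groups met. The mean log2 ratio was 5.44 ± 0.597 in controls and 4.18 ± 0.789 in irradiated tumors (SD, n = 3), a difference of -1.26 that ranged from -1.63 to -0.84 with 1 tumor left out. No test was made on these ratios, because the genes were chosen with results of these tumors known.

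**Figure D2:**
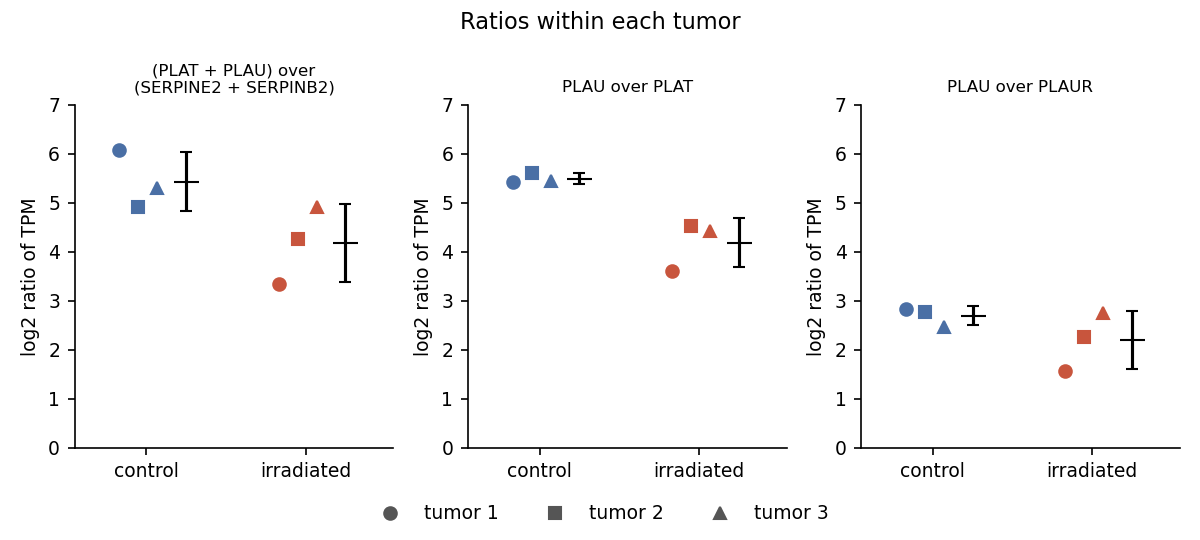
Log2 of 3 ratios of TPM within each tumor (y axis), for control and irradiated tumors, with mean and SD beside the points. Irradiated tumor 1 is the lowest in all 3 ratios, and the groups are apart for PLAU over PLAT but not for the other two.

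Of the receptors, PLAUR encodes the urokinase receptor, a lipid-anchored protein that holds urokinase at the cell surface. It lies on chromosome 19 from 43646095 to 43670547 on the minus strand and contains the small RNA pseudogene RN7SL368P on the same strand. PLAUR was at 197, 223 and 257 TPM in control tumors 1, 2 and 3 and at 276, 290 and 192 TPM in irradiated tumors 1, 2 and 3. Irradiated tumor 3 was the lowest of all 6 and the other two irradiated tumors were the highest. PLAUR did not pass, at a log2 fold change of 0.15 with a 95% interval of -0.28 to 0.58 (limma adjusted p = 0.681), and with 1 tumor left out the fold change ranged from 0.040, without irradiated tumor 2, to 0.34, without irradiated tumor 3. The ratio of PLAU to PLAUR spanned 5.56 to 7.15 among controls, against 2.98, 4.79 and 6.77 for irradiated tumors 1, 2 and 3.

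Macrophages and neutrophils carry the urokinase receptor as well. The 13 markers of these cells summed to 90.8 to 110 TPM in controls and 109 to 208 TPM in irradiated tumors, and CD68, a lysosomal protein that tumor cells can also express, made up 77.5% to 90.0% of the sum. ADGRE1, a macrophage surface receptor, was at 8.97 to 9.37 TPM in controls and 11.8 to 16.9 TPM after irradiation, with no overlap (log2 fold change 0.64, limma adjusted p = 0.105, or 0.0439 with array weights). CSF1R, the receptor of a macrophage growth factor, was at 2.95 to 9.12 and 3.27 to 5.53 TPM, and LYZ, or lysozyme, at 0.83 to 3.99 and 0.14 to 1.94 TPM. S100A8, S100A9 and TYROBP were listed at 0 in all 6 tumors, and the pan-leukocyte marker PTPRC reached at most 0.3 TPM. The part of these cells in the PLAUR values was not tested. Whether mouse reads were removed is not given in the sources used here, and mouse cells are counted in a human table only as far as their reads match human genes.

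**Figure D3:**
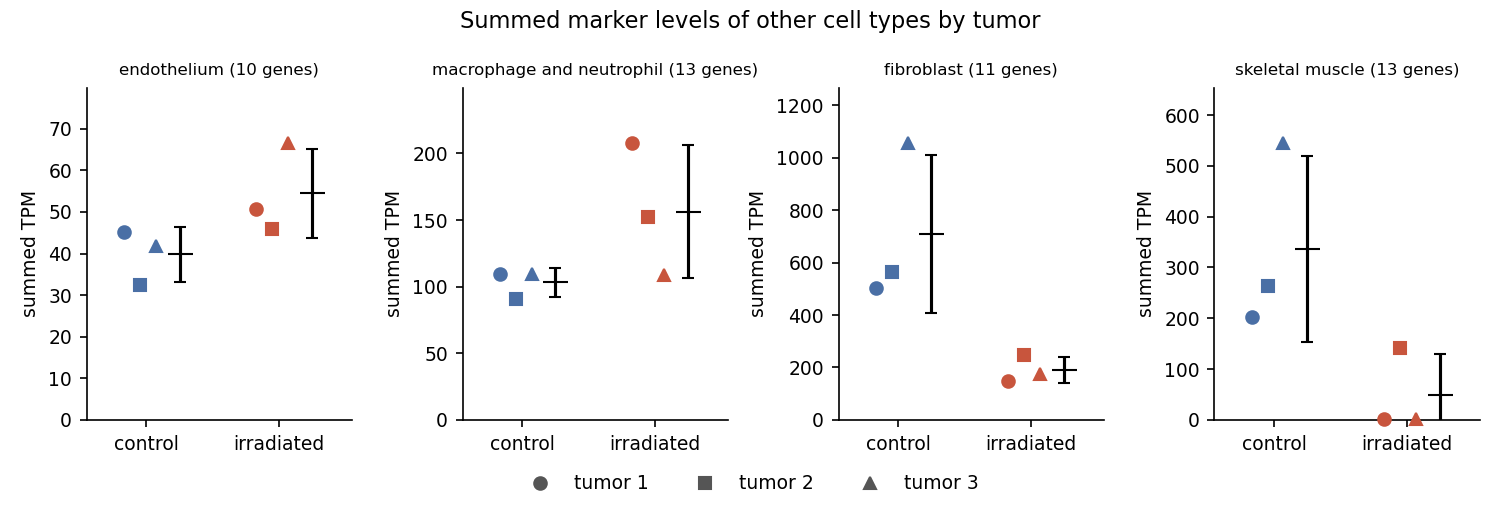
Summed TPM of marker lists for 4 other cell types in each tumor (y axis, linear from 0), with mean and SD beside the points. Endothelial sums, most of which are the single gene ESAM, are 32.5 to 45.1 TPM in controls and 46.0 to 66.6 TPM after irradiation. Fibroblast sums, carried mostly by collagen genes, and muscle sums are lower in every irradiated tumor than in any control.

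ANXA2 encodes annexin A2, a calcium-dependent membrane protein that binds plasminogen and tPA in a complex with S100A10. It lies on chromosome 15 from 60347134 to 60402883 on the minus strand, overlaps the processed pseudogene AC087385.1 on the plus strand, which was at 4.67 TPM in control tumor 3 and listed at 0 in the other tumors, and has processed pseudogenes elsewhere, of which ANXA2P1, ANXA2P2 and ANXA2P3 were each at 5.05 TPM or less. ANXA2 was at 3260, 2701 and 3014 TPM in control tumors 1, 2 and 3 and at 2720, 2796 and 2981 TPM in irradiated tumors 1, 2 and 3. The groups overlapped, and the log2 fold change was -0.08 with a narrow 95% interval of -0.35 to 0.20 (limma adjusted p = 0.761). Its partner S100A10 was at 997, 1238 and 1136 TPM in controls and at 1210, 896 and 1249 TPM in irradiated tumors (log2 fold change -0.02, adjusted p = 0.968). The ratio of ANXA2 to S100A10 was 2.18 to 3.27 in controls and 2.25 to 3.12 after irradiation. It varied between tumors within each group, while the group means of its log2 differed by only -0.06.

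The wider system was followed in 45 other genes, namely regulators of plasmin, surface partners, clearance receptors, activating proteases and co-receptors. Of these, 32 passed the filter, 2 rose and 0 fell in limma, and at an unadjusted p under 0.05 there were 10 higher and 2 lower. The 2 that rose passed the filter only through the irradiated tumors, which limits what these counts can show. Of all tested genes 1.37% rose and 1.61% fell, and 8.93% were higher and 11.5% lower at an unadjusted p under 0.05. Fold changes were above 0 for 22 and below 0 for 10, with a median of 0.20 against -0.06 over all tested genes. The groups did not overlap in 10 genes that were higher and 1 that was lower, where 11.6% and 15.0% of all tested genes did so in these directions.

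The 2 genes that rose were both of low level, with control means of 0.973 TPM for ST14 and 0.357 TPM for CLEC3B. Both reached the filter of 1 TPM only through the irradiated tumors, where they were high. ST14 encodes matriptase, a membrane protease that activates pro-urokinase, and was at 0.96, 0.93 and 1.03 TPM in control tumors 1, 2 and 3 and at 3.68, 3.49 and 4.47 TPM in irradiated tumors 1, 2 and 3 (log2 fold change 1.30, limma adjusted p = 0.0242). CLEC3B encodes tetranectin, which binds a kringle domain of plasminogen, and was listed at 0 in control tumor 1, at 0.81 and 0.26 TPM in control tumors 2 and 3 and at 4.0, 5.35 and 2.68 TPM in irradiated tumors 1, 2 and 3 (log2 fold change 1.89, adjusted p = 0.0251). All irradiated tumors were above all controls for both. Each call survived leaving out control tumor 2, but neither survived leaving out any of the 5 remaining tumors singly (largest adjusted p = 0.103 for each).

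Among the proteases, the lysosomal cathepsins B and L, which can activate pro-urokinase, did not pass. CTSL was at 125, 130 and 146 TPM in control tumors 1, 2 and 3 and at 256, 190 and 170 TPM in irradiated tumors 1, 2 and 3, with no overlap (log2 fold change 0.60, limma adjusted p = 0.103). CTSB was at 155 to 192 TPM in controls and 189 to 298 TPM after irradiation (0.52, adjusted p = 0.184). The liver-type protease HPN was listed at 0 in every tumor.

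Of the regulators, SERPINA5, the protein C inhibitor, which also blocks urokinase, had the values nearest to a call. It was at 26.2, 28.5 and 15.7 TPM in control tumors 1, 2 and 3 and at 58.8, 40.1 and 41.4 TPM in irradiated tumors 1, 2 and 3 (log2 fold change 0.99, limma adjusted p = 0.0778), and it passed with array weights (adjusted p = 0.0316) and with protein-coding genes only (0.0480). SERPING1, the C1 inhibitor, which also acts on plasmin, was at 3.57 to 8.95 TPM in controls and 11.0 to 27.9 TPM after irradiation (1.26, adjusted p = 0.122). In both genes the groups did not overlap. SERPINB6, an intracellular serpin, was at 95.5 to 103 TPM and 87.9 to 105 TPM (-0.06, adjusted p = 0.828). Plasminogen itself (PLG) reached at most 0.43 TPM in any tumor, so its transcripts were nearly lacking in this tissue.

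Surface partners gave no call among 9 tested genes in limma, with 4 at an unadjusted p under 0.05, against 20.5% of all tested genes. The glycolytic enzyme ENO1, which also serves as a plasminogen receptor on the cell surface, was at 2754, 2763 and 2992 TPM in control tumors 1, 2 and 3 and at 2015, 2310 and 2492 TPM in irradiated tumors 1, 2 and 3, with no overlap (log2 fold change -0.32, limma adjusted p = 0.191). IGF2R, which binds the urokinase receptor and plasminogen, was at 33.1 to 43.7 TPM in controls and 61.2 to 79.3 TPM after irradiation (0.77, adjusted p = 0.0520). It passed in 7 of 18 alternatives, among them medians of ratios (adjusted p = 0.0262) and quantile normalization (adjusted p = 0.0202). MRC2, a collagen receptor that associates with the urokinase receptor, was at 38.4 to 58.2 and 62.4 to 74.3 TPM (0.51, adjusted p = 0.157).

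Co-receptors and clearance receptors also gave no call in limma, among 9 and 4 tested genes, with 2 (ITGB5 and ITGA6) and 0 at an unadjusted p under 0.05, again against 20.5%. Integrin subunit ITGB5 was at 91.0 to 108 TPM in controls and 123 to 189 TPM in irradiated tumors, with no overlap (log2 fold change 0.70, limma adjusted p = 0.0790). ITGA6, an alpha subunit of laminin receptors, was at 31.3 to 49.3 TPM and 23.7 to 32.8 TPM, with overlap (-0.56, adjusted p = 0.176). ITGB1, the common beta subunit, was at 215 to 317 TPM and 192 to 240 TPM (-0.34, adjusted p = 0.307). LRP1, which takes up complexes of activator and serpin from the surface, was at 20.6 to 28.2 TPM and 20.0 to 37.9 TPM (0.21, adjusted p = 0.662).

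**Figure D4:**
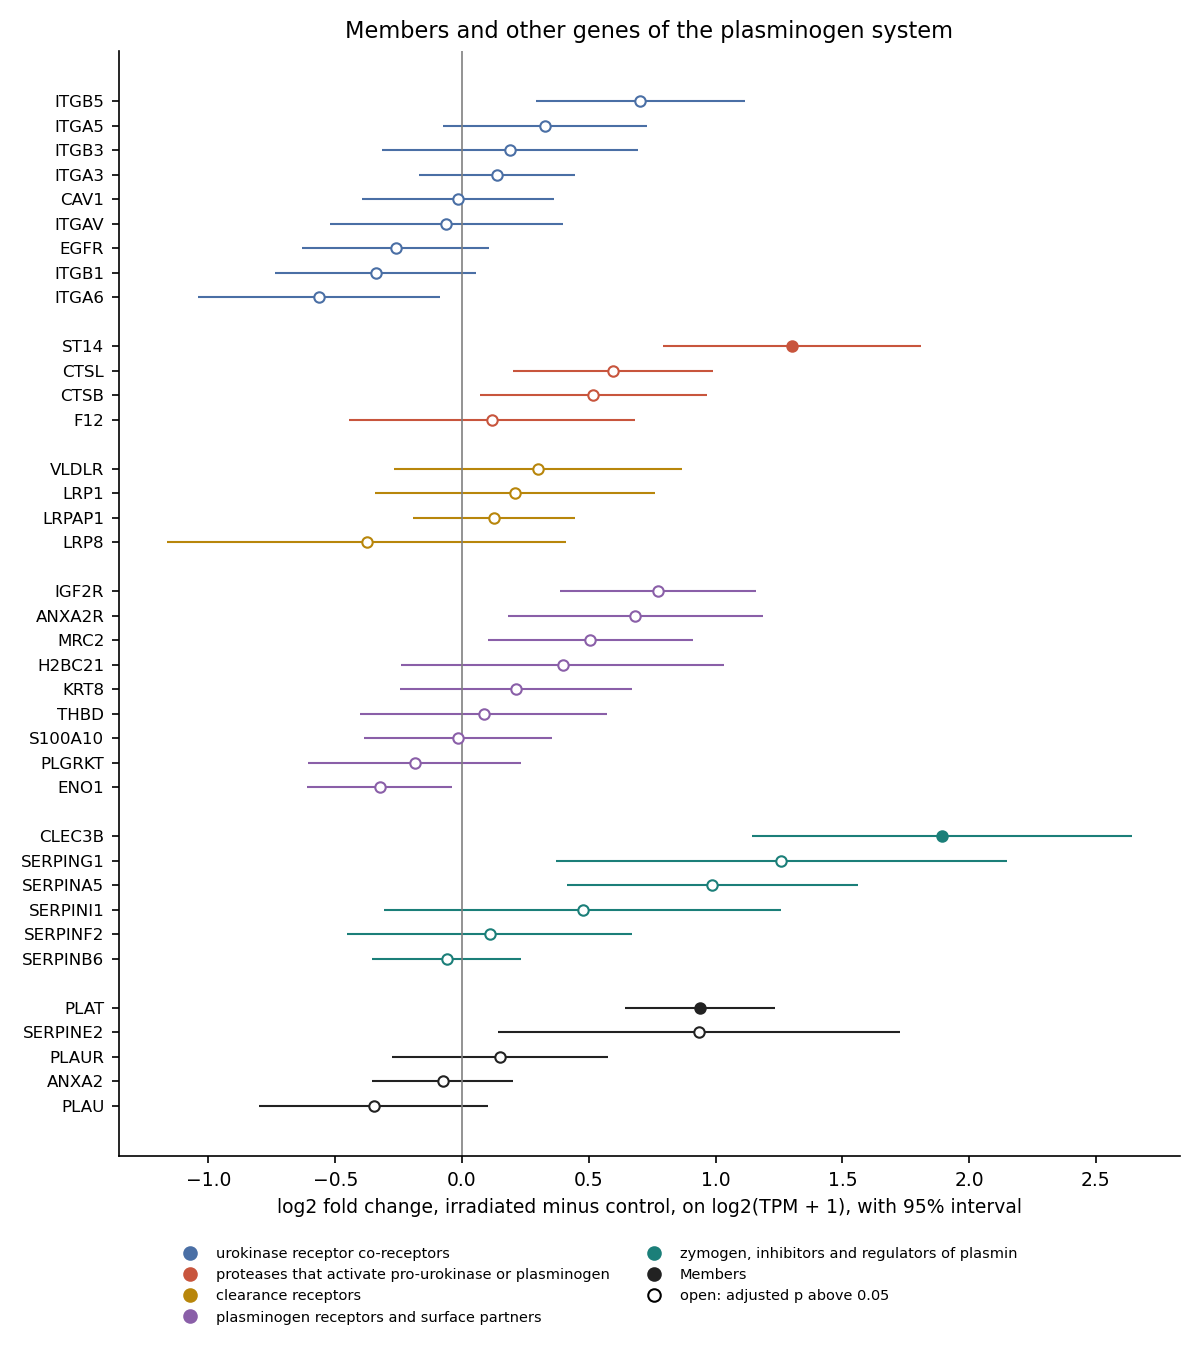
Log2 fold change with its 95% interval (x axis, irradiated minus control on log2(TPM + 1)) for the 5 tested members, at the bottom, and 32 other tested genes of the system, grouped by role. Filled points, PLAT, CLEC3B and ST14, have an adjusted p of at most 0.05, and the interval of PLAT is the narrower one beside that of SERPINE2.

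The genes whose levels ran most like those of each member over the 6 tumors were taken by Pearson correlation on log2(TPM + 1) among 7375 genes averaging 10 TPM or more, as a description. For PLAT they were FRAS1, a matrix protein of basement membranes (r = 0.998), and RTN2, a reticulon (r = 0.998). FRAS1 went from 0.05 to 0.16 TPM in controls to 48.0, 27.6 and 29.3 TPM in irradiated tumors 1, 2 and 3, and RTN2 from 23.8 to 24.6 TPM in controls to 36.1, 33.8 and 33.4 TPM. All 3 genes were therefore highest in irradiated tumor 1. FRAS1 entered the genes compared only through the irradiated tumors, since its control values were far under 10 TPM. A correlation of at least 0.95 with PLAT was reached by 1.29% of the genes compared.

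Such a correlation was reached by 1.52% of the genes compared for ANXA2, 0.244% for SERPINE2, 0.190% for PLAUR and 0.0949% for PLAU. For SERPINE2 the nearest was TSC22D1, a transcriptional regulator (r = 0.995), which was at 102, 157 and 129 TPM in control tumors 1, 2 and 3 and at 192, 188 and 140 TPM in irradiated tumors 1, 2 and 3, and then COA5 (r = 0.986). For PLAU they were POLR2J and HSD17B8 (r = 0.977 and 0.976), both lowest in irradiated tumor 1. For PLAUR they were TMED1 and PMAIP1 (r = 0.991 and 0.988), and for ANXA2 RBM19 and GATD1 (r = 0.995 and 0.994), both of which were highest in control tumor 1. Between the members themselves, r ran from -0.90 for SERPINE2 with ANXA2 to 0.73 for SERPINE2 with PLAUR. These points are 6 tumors in 2 groups, so a shared group difference or 1 shared tumor is enough to give a high r.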

How the data were processed

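The data were 1 table of TPM with 6 columns, deposited by the authors and named for the tumors in the labels. Per the labels' protocols, total RNA was made into libraries with Illumina's TruSeq method. Tools named in the submitters' processing notes are StringTie, HISAT2 and RSEM, with hg38 as the build. How mouse reads and strand were treated, and which annotation was used, is not given in the sources used here. TPM are shares of a total and keep no depth, so no count test or counting interval was possible. Gene positions came from GENCODE release 29 (GRCh38, the assembly hg38).

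The comparison of irradiated with control tumors used limma 3.58.1 under R 4.3.3 (lmFit, eBayes with trend) on log2(TPM + 1) over the 14140 genes whose mean reached 1 TPM. Group was the sole term, tests were two-sided, and the threshold was a Benjamini-Hochberg adjusted p of 0.05. Tested on simulated data for this comparison over 14140 genes, the fit recovered 37.2% of changes of 2-fold and 80.4% of changes of 4-fold. Of its calls 6.04% were false, slightly above the share that a threshold of 0.05 aims at. The simulated noise was independent between genes, so deviations that many genes of 1 tumor share were not covered. Alternatives were other pseudocounts, filters, scalings and variance models, a replicate block and each tumor left out. Those chosen after seeing the data were protein-coding genes only, and pseudogenes added to ANXA2. Members and lists were chosen with earlier results of these data known. Named genes are the 6 members, called genes of each list, up to 6 others of each list with the highest mean TPM, the set partners PLG, S100A10 and ENO1 and the 2 genes most correlated with each member. A gene of the lists is not reported here. HPN, ITGA6, LTBP1, PGR, VWF, ERG, LUM, THY1, MYH2, PYGM, PTPRC, S100A8, S100A9, TYROBP, SERPINB10, C10orf55, AC087385.1 and the ANXA2 pseudogenes were named after their values were seen.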

Additional observations from a re-analysis of the deposited data

How the results depend on the processing

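PLAT kept its call in 17 of 18 alternatives, with a log2 fold change of 0.86 to 1.00 and adjusted p from 0.00603 to 0.0649, and lost it without irradiated tumor 1 (log2 fold change 0.89, adjusted p = 0.0649). With 1 tumor left out it ranged from 0.89 to 0.96. PLAU, PLAUR, SERPINE2 and ANXA2 kept their direction and stayed uncalled in every alternative run. SERPINB2, given without a test, had a difference of mean log2 values of 0.15, which was 0.62 with a pseudocount of 0.1 TPM. Values with other filters, quantile normalization and the remaining variance models are not given for it, since it is under the filter of the main fit. The direction of S100A10 turned with medians of ratios (0.043), without mitochondrial and ribosomal protein genes (0.025), and without control tumor 2 (0.056) or irradiated tumor 2 (0.14), and that of LRP1 (-0.022), CDH5 (-0.14) and TIE1 (-0.078) without irradiated tumor 3, CSF1R without control tumor 3 (0.26) or irradiated tumor 1 (0.037), and ERBB2 without control tumor 2 (-0.072). With 1 tumor left out, S100A10 ranged from -0.10 to 0.14, LRP1 from -0.022 to 0.42, CDH5 from -0.14 to 0.78, TIE1 from -0.078 to 1.17, CSF1R from -0.42 to 0.26 and ERBB2 from -0.072 to 0.26.

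In all, 421 genes were called, against 279 without trend, 1064 with array weights and 127 to 791 with 1 tumor left out. With the replicate number as a block 185 genes were called, and PLAT kept its call (adjusted p = 0.0491) while ST14 lost it (0.0756). CLEC3B lost its call with a pseudocount of 0.1 TPM (0.0508). Same-numbered tumors shared no deviations (r = -0.043, -0.046 and -0.059 for numbers 1, 2 and 3), and no tumor correlated best with its own number. Without a filter the variance fit was unreliable, as most residual variances were 0. Depth is unknown, which limits the reading of SERPINB2, ST14 and CLEC3B most.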

Other observations

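Of 12 annexins, 8 were tested and 1 was called, where 2.98% of all tested genes were called. ANXA3 was at 31.1, 29.3 and 24.4 TPM in control tumors 1, 2 and 3 and fell, with 16.2, 13.0 and 15.8 TPM in irradiated tumors 1, 2 and 3 (log2 fold change -0.87, limma adjusted p = 0.0347). The call survived leaving out control tumor 2, but none of the 5 remaining tumors (largest adjusted p = 0.123). Keeping all low genes (adjusted p = 0.0935), dropping the variance trend (0.0566) and blocking on the replicate number (0.0882) also ended it, so it was lost in 8 of 18 alternatives. ANXA2 was the most abundant annexin in every tumor. ANXA5 was at 333 to 429 TPM in controls and 352 to 596 TPM in irradiated tumors (0.23, adjusted p = 0.545), a fold change that ranged from 0.021 to 0.40 with 1 tumor left out. ANXA1, an inhibitor of inflammation, was at 189 to 245 and 166 to 220 TPM (-0.27, adjusted p = 0.387).

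Of 13 clade B serpins, 10 were under a mean of 1 TPM, SERPINB2 among them. The 3 tested members were SERPINB6, SERPINB1 (log2 fold change -0.19, adjusted p = 0.542) and SERPINB8 (-0.43, adjusted p = 0.240), with 0 calls in limma. At an unadjusted limma p under 0.05 there was 1 gene, SERPINB8, where 20.5% of all tested genes had such a p.

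Among 19 genes whose proteins plasmin is known to cut or activate, or that anchor such proteins, 15 were tested and 0 were called in limma, with 2 at an unadjusted p under 0.05, FN1 and LTBP1, both higher, again against 20.5% of all tested genes. Fibronectin (FN1) was at 431, 1092 and 551 TPM in control tumors 1, 2 and 3, against 1788, 1225 and 1274 TPM in irradiated tumors 1, 2 and 3, with no overlap (log2 fold change 1.14, adjusted p = 0.0985). It passed without control tumor 2 (1.53, adjusted p = 0.0146) and with array weights (0.0252), and with any other one tumor left out it did not, down to 0.86 without control tumor 1 (adjusted p = 0.236). THBS1, thrombospondin 1, was at 243, 146 and 273 TPM in controls and at 77.1, 203 and 120 TPM in irradiated tumors (-0.78, adjusted p = 0.260), and its fold change ranged from -1.14 without irradiated tumor 2 to -0.45 without irradiated tumor 1.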
